A study of Mus musculus with 7 samples.

Results

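The genes of Wnt signalling were examined in the whole adrenal gland, in RNA from females 2 months of age. Members were all genes named as a Wnt ligand, Frizzled receptor, secreted Frizzled-related protein (Sfrp), R-spondin, Dickkopf (Dkk) or Lgr4 to Lgr6 receptor, together with Lrp5, Lrp6, Axin1, Axin2, Lef1, Znrf3, Rnf43, Wif1, Notum, Nkd1, Ctnnb1, Apc and Tnfrsf19. The name rule found 58 of the 22180 genes measured, each read from its brightest probe set. The rule also takes in Fzd10os, a transcript opposite Fzd10 that is no receptor, and it lists Tcf7, for which no probe set is named here. Gene expression was compared between 3 wild-type (WT) littermates and 4 knockout (KO) mice of genotype sf1:Cre; Ezh2 Fl/Fl, all on an uncontrolled mixture of mainly the C57BL/6 and SV129 backgrounds. The Cre recombinase is driven through steroidogenic factor 1 (Nr5a1), which is active in steroid-producing cells of the adrenal cortex, and Ezh2 encodes the enzyme with which Polycomb methylates histone H3. RNA came from the whole gland, so cells outside the Cre domain were measured too.

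Wnt proteins are secreted ligands that bind Frizzled receptors together with the co-receptors Lrp5 and Lrp6. Binding stops the destruction complex, which holds Axin and Apc, from degrading beta-catenin (Ctnnb1), and beta-catenin then acts with factors such as Lef1 on target genes. R-spondins bind Lgr receptors and take the ubiquitin ligases Znrf3 and Rnf43 off the membrane, so that Frizzled receptors stay there. In the mouse adrenal the capsule is known as a source of R-spondin 3 and Wnt2b, and the outer cortex, the zona glomerulosa, as a site of Wnt4 and of active beta-catenin.

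All values are RMA log2 levels from 1-colour arrays, a scale on which 1 unit is a 2-fold difference, and changes are log2 KO minus WT. A gene was called when its limma p, adjusted by Benjamini-Hochberg over all 22180 genes, was under 0.05. The arrays of a group correlated across genes with r of 0.993 to 0.996, and arrays of different groups with 0.984 to 0.990. The cortex was present, with a steroidogenic list mean of 12.002 to 12.075 in WT and of 12.077 to 12.169 in KO. These ranges did not overlap, though narrowly, and 1 of 8 markers (Scarb1, change 0.34) was called, as higher. The markers did not move together. Star (-0.16), Hsd3b1 (-0.20) and Cyp21a1 (-0.10) had all KO arrays below all WT arrays, and Mc2r (0.18) had them above, none of these called. The zona glomerulosa list overlapped between groups (9.11 to 9.51 in WT, 8.81 to 9.48 in KO), with 1 of 6 markers (Kcnk9, change 0.64) called higher and none called lower. The largest changes were negative but not called. They were -1.34 for Hsd3b6, with overlapping groups (adjusted p = 0.312), and -0.75 for Agtr1b, with KO below WT (adjusted p = 0.121). The other markers had positive changes. Ezh2 itself was at 7.08 on each WT array and between 6.86 and 7.15 in KO (adjusted p = 0.816). Whether that probe set lies in the deleted exons is unknown here, so it does not check the labels. Several marker lists of other cells moved with the genotype as well. All 11 measured chromaffin markers rose, and the mean of that list was 9.24 to 9.35 in WT and 10.1 to 10.4 in KO. Of 10 capsule and stroma markers 6 rose (list mean 7.61 to 7.70 in WT, 8.16 to 8.72 in KO), as did 4 of 7 gonadal markers (5.54 to 5.64 in WT, 6.31 to 6.43 in KO). Of 6 macrophage markers 1 fell, with list means of 7.61 to 7.67 in WT and 7.08 to 7.48 in KO. None of 4 Schwann markers was called, but their list means did not overlap (5.30 to 5.46 in WT, 5.51 to 5.62 in KO). Of these markers only Erbb3 had all KO arrays above all WT arrays (change 0.51, adjusted p = 0.0676). S100b (0.12), Sox10 (0.16) and Foxd3 (-0.05) overlapped between groups. The endothelial list overlapped between groups (8.82 to 8.93 in WT, 8.60 to 8.92 in KO), with 1 of 6 markers lower, as did the adipocyte list (8.40 to 9.37 in WT, 7.10 to 8.95 in KO), with none of 6 called. In whole-gland RNA, a change in the number of cells of a type and a change in RNA per cell cannot be told apart, and the part of these cell types in the results below was not tested.

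In KO glands the R-spondin receptor Lgr5 rose 1.90-fold and the Frizzled receptor Fzd8 fell 1.67-fold, the only 2 members that were called and changed by at least 1.5-fold (3.62% of all genes did). Fzd3 and the secreted glycoprotein Dkk3 also rose, and Lgr4 and Tnfrsf19 also fell, and no ligand, R-spondin, co-receptor, ligase or component of the beta-catenin destruction complex was called. In all, 6 of 58 members (10.3%) were called, against 8.69% of all genes, a share near the background. There were 3 members higher (5.17%, against 5.14% of all genes) and 3 lower (5.17%, against 3.55%). With each array centred on its median the split of all called genes moved from 59.1% to 43.1% higher, and the members gave 2 higher and 3 lower. Without that centring the median change of the members was 0.02, against 0.0004 over all genes, and 44 of the 58 changed by less than 0.2 in either direction. With it, the members' median was -0.031, against -0.051 over all genes. The levels of the groups were fully separate for 10 members (17.2%, against 20.2% of all genes). KO lay above WT for 5 (10.3% of all genes) and below it for 5 (9.86% of all genes).

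**Figure D1:**
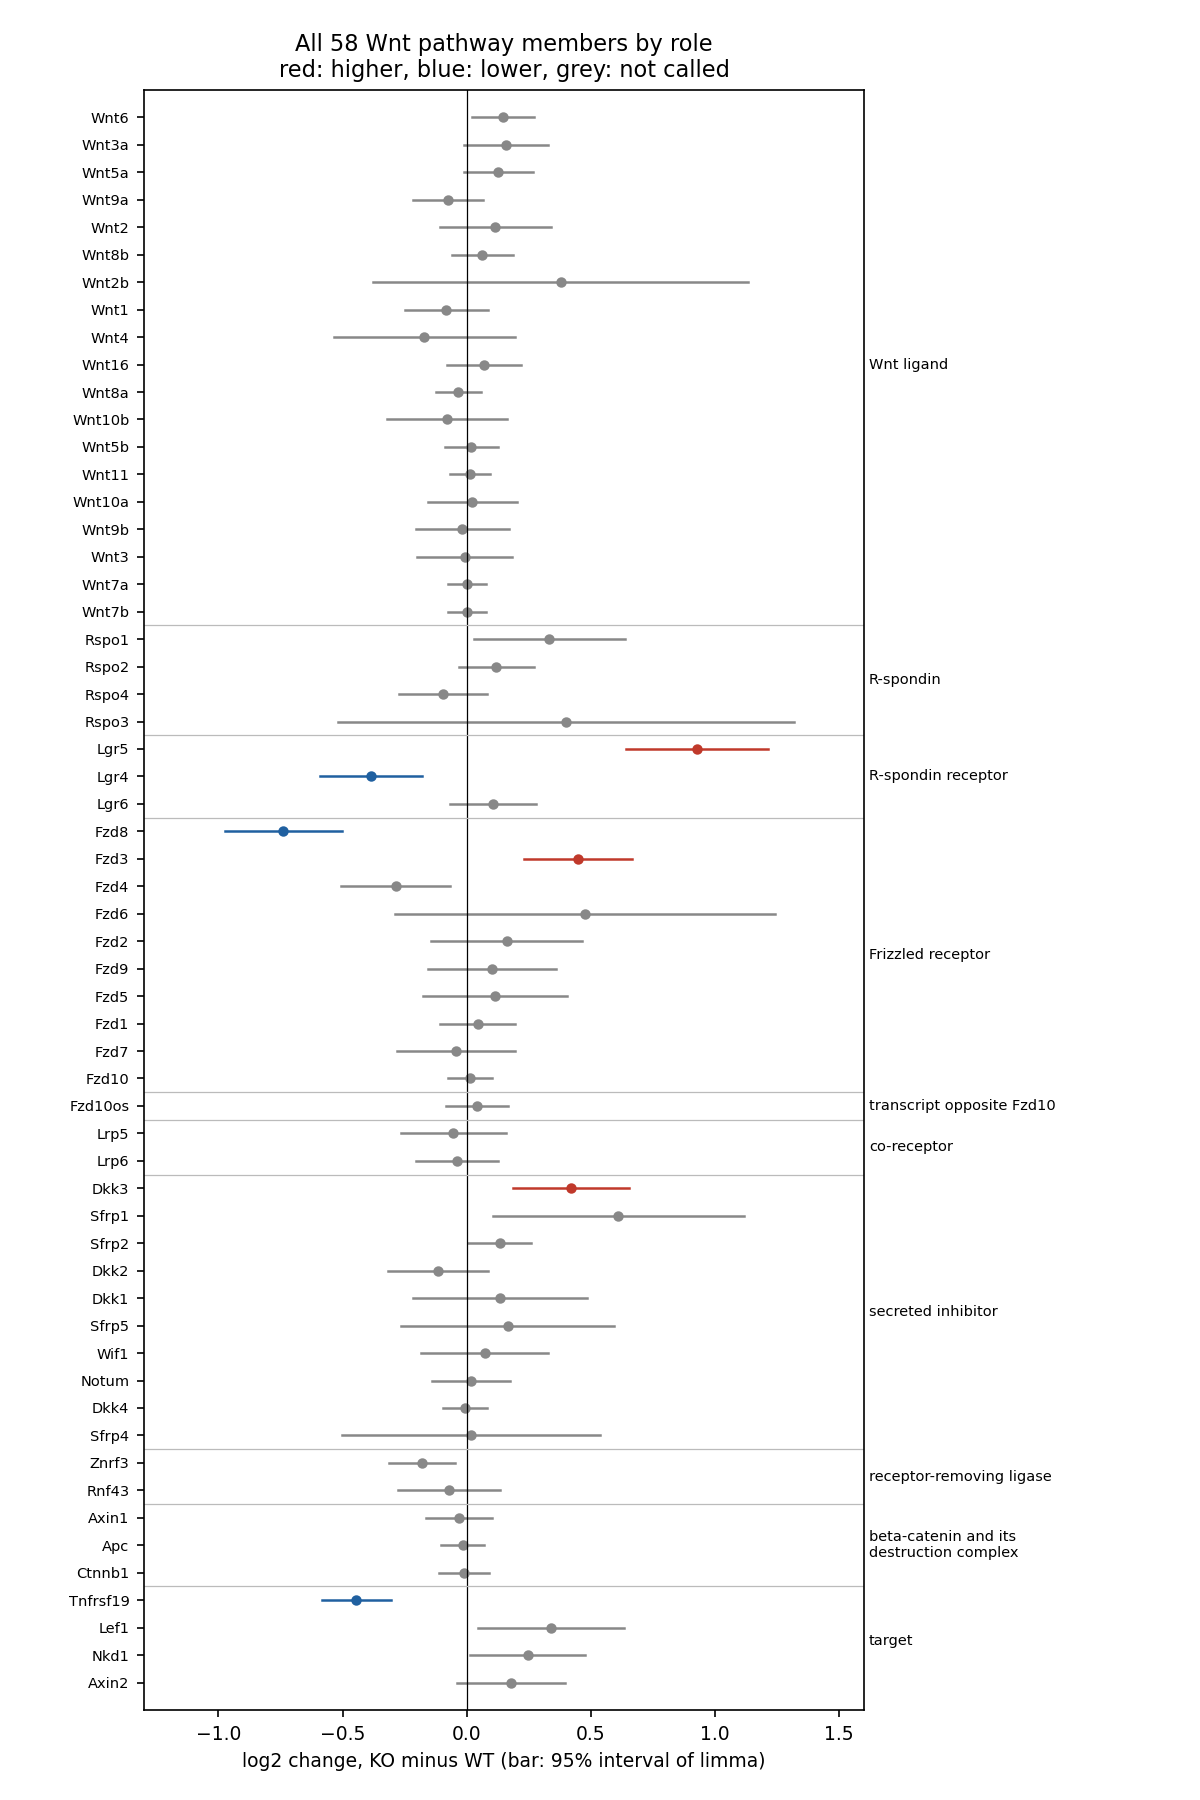
The log2 change (KO minus WT) of each of the 58 members is plotted on the x axis by role, with the 95% interval of limma as a bar. Called members are red (Lgr5, Fzd3, Dkk3) or blue (Lgr4, Fzd8, Tnfrsf19), and the ligands, which hold no called member, range from -0.17 (Wnt4) to 0.38 (Wnt2b).

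Among the R-spondin receptors, 2 of 3 were called, and they moved in opposite directions. Lgr5, which binds R-spondins and is known as a marker of Wnt-responsive stem cells in the gut, was at 8.06, 8.14 and 8.12 on the WT arrays and at 9.36, 8.81, 9.02 and 8.95 on the KO arrays. Each KO array lay above each WT array, with KO replicate 1 the highest. The change was 0.93 (SE 0.12, 95% interval 0.64 to 1.21, adjusted p = 0.00536). A second, dimmer Lgr5 probe set was at 4.33 to 4.49 in WT and 4.54 to 4.96 in KO, also without overlap (change 0.31, SE 0.10, adjusted p = 0.121). The mean of both probe sets changed by 0.62 and was still called. Leaving out any 1 array kept the call, with changes of 0.82 to 1.00 and a highest adjusted p of 0.0338.

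Lgr4, the broadly expressed relative of Lgr5, fell 1.31-fold. Its WT levels were 9.95, 9.93 and 9.99, and its KO levels 9.79, 9.48, 9.61 and 9.42. The groups did not overlap, and KO replicate 1 was nearest to WT. The change was -0.39 (SE 0.09, adjusted p = 0.0390), and the call was lost in 6 of the 7 fits without 1 array (all but that without KO replicate 1), with an adjusted p of up to 0.142. Lgr6 was at 5.78 to 5.86 in WT and 5.72 to 6.00 in KO, and its change of 0.11 did not pass the test (adjusted p = 0.456).

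The RefSeq promoter windows of the members that fell are shown for the letters around their starts, 250 bases before to 50 after. Of the 58 members 36 had a window in the table (build GRCm38.p6), and of the 6 called members these were Lgr4 and Tnfrsf19. Capitals mark the letters CTTTGA, the core of the TCF/LEF motif, or TCAAAG on the opposite strand. The Lgr4 window (chr2:109917397-109917696, plus strand) holds no match and 18 CG dinucleotides.
Lgr4: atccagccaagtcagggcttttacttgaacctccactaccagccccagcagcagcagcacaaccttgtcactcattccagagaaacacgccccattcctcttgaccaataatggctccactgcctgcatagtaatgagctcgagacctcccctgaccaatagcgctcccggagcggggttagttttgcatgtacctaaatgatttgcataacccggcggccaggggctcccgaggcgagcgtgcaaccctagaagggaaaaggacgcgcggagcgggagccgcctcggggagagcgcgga
Tnfrsf19 has windows at 2 starts on the minus strand. The upstream one (chr14:61046806-61047105) holds no match and 14 CG dinucleotides, and the downstream one (chr14:61037938-61038237) holds 1 match, which begins at position -201 from the start, and 13 CG dinucleotides.
Tnfrsf19, upstream start: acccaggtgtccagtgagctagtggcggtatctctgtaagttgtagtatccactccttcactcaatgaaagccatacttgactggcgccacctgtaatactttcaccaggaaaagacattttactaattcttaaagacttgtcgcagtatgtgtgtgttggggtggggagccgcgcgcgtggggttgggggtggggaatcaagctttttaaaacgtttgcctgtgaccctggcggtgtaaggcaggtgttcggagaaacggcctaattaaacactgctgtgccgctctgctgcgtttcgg
Tnfrsf19, downstream start: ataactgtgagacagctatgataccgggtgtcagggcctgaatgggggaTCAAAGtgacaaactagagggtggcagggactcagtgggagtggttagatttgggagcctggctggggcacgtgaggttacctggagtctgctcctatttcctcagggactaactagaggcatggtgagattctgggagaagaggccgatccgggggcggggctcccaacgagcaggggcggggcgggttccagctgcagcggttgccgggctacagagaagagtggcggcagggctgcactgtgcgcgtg
The motif letters occur in 6 of the 45 windows of members (13.3%), against 16% of all 32851 windows of the same length. The members' windows held a median of 24 CG dinucleotides (range 3 to 58), against 7 over all windows.

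None of the 4 R-spondins was called, with changes between -0.10 and 0.40. Rspo3 was at 8.27, 8.02 and 7.82 on the WT arrays and at 7.33, 8.65, 9.04 and 8.73 on the KO arrays. KO replicate 1 lay below each WT array, and the other 3 KO arrays lay above each. Over all arrays the change was 0.40 (SE 0.39, 95% interval -0.52 to 1.32, adjusted p = 0.602), and without KO replicate 1 it was 0.77 (SE 0.15, adjusted p = 0.0377). Rspo3 had the largest SD over the KO arrays of all members, 0.76 against 0.22 in WT. Rspo1, the R-spondin known for its role in ovary determination, was at 7.08, 6.91 and 6.73 in WT and 7.08, 7.36, 7.47 and 7.05 in KO, with WT replicate 1 within the KO range (change 0.33, SE 0.13, adjusted p = 0.181).

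Of the 19 Wnt ligands none was called, and 1, Wnt6, had an unadjusted p under 0.05 (22.8% of all genes did). Their changes ran from -0.17 to 0.38 with a median of 0.01. Apart from Wnt4, Wnt2b and Wnt5a, the ligands lay below the median level of each array (medians of 5.79 to 5.86). RMA compresses differences of dim genes, so the lack of a call says little for them. Wnt4, the ligand of the outer cortex, was at 9.06, 8.97 and 9.01 in WT and at 8.58, 8.97, 8.61 and 9.21 in KO. The KO arrays spread to both sides of WT, with SDs of 0.30 in KO and 0.05 in WT (change -0.17, SE 0.15, adjusted p = 0.571). Wnt2b, the ligand known from the capsule, was at 7.22, 6.99 and 7.01 in WT and at 6.55, 7.79, 7.99 and 7.47 in KO. As for Rspo3, KO replicate 1 lay below and the other 3 KO arrays above each WT array. Its change was 0.38 (SE 0.32, adjusted p = 0.544), and 0.68 without KO replicate 1 (SE 0.14, adjusted p = 0.0483). The change of Wnt6, named as the ligand with the lowest unadjusted p, was 0.15 (95% interval 0.02 to 0.27, adjusted p = 0.158). The values of Wnt7b were identical on all 7 arrays and those of Wnt7a on all 3 WT arrays, which also held for Dkk4 and Axin1, so that for these 4 members the WT SD is 0.

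Several marker lists also stood at the edge of the KO range on KO replicate 1, and their part in the spread of Rspo3 and Wnt2b was not tested. On KO replicate 1 the capsule and stroma list mean was 8.16, against 8.44 to 8.72 on the other KO arrays, and the adipocyte list mean was 7.10, against 8.31 to 8.95. That capsule mean still lay above each WT array (7.61 to 7.70), whereas Rspo3 and Wnt2b lay below each. The zona glomerulosa list mean was also lowest there, at 8.81, against 9.09 to 9.48, while the chromaffin list mean was highest there, at 10.36 against 10.11 to 10.19, as was the steroidogenic list mean, at 12.17 against 12.08 to 12.10. Without KO replicate 1 the members called were 9 of 58 (15.5%, against 7.15% of all genes): Lgr5, Fzd3, Lef1, Rspo3, Fzd2 and Wnt2b higher and Lgr4, Tnfrsf19 and Fzd8 lower. Dkk3 was not among them. In the other fits without 1 array the share of members called was near that of all genes. It was 5.17% to 6.9% of members, against 4.13% to 6.99% of all genes. Fzd2, named after its values were seen, was at 4.44 to 4.56 in WT and at 4.30, 4.82, 4.70 and 4.81 in KO, with a change of 0.28 without KO replicate 1 (adjusted p = 0.0401) and 0.16 over all arrays (adjusted p = 0.519).

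**Figure D2:**
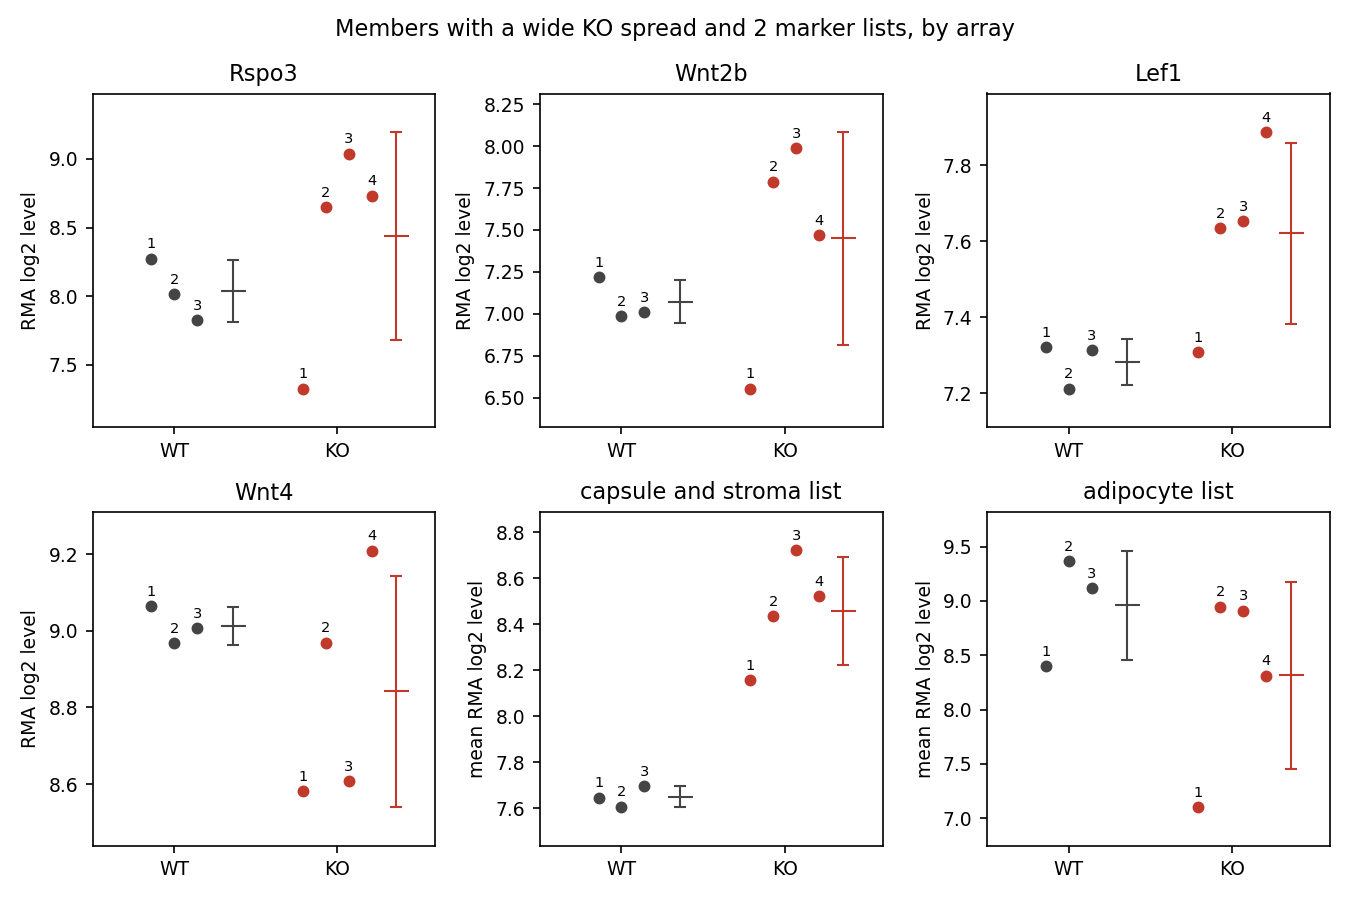
RMA log2 levels (y axis) of Rspo3, Wnt2b, Lef1 and Wnt4 and the mean levels of the capsule and stroma list and of the adipocyte list are plotted per array, with the replicate number above each point and the group mean and SD as a bar (WT n = 3, KO n = 4). KO replicate 1 lies below all other arrays for Rspo3 (7.33), Wnt2b (6.55), Wnt4 (8.58) and the adipocyte list (7.10). It is the lowest KO array, but not the lowest of all arrays, for Lef1 (7.31) and the capsule and stroma list (8.16).

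Of the 10 Frizzled receptors, the membrane receptors of Wnt ligands, 1 rose and 1 fell. Fzd8 was at 7.03, 7.12 and 7.07 in WT and at 6.36, 6.49, 6.07 and 6.44 in KO. All KO arrays lay below all WT arrays, with KO replicate 3 the lowest. The change was -0.74 (SE 0.10, 95% interval -0.97 to -0.50, adjusted p = 0.00623), and it was called under all 16 alternatives, with an adjusted p of up to 0.0418. Fzd3, a receptor known mainly from axon growth and cell polarity, was at 6.77, 6.80 and 6.97 in WT and at 7.11, 7.45, 7.23 and 7.38 in KO. The groups did not overlap, and WT replicate 3 was nearest to KO. Its change of 0.45 (SE 0.09, adjusted p = 0.0284) was called in 1 of the 7 fits without 1 array, that without KO replicate 1, and had an adjusted p of up to 0.106 in the others.

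The other 8 Frizzled receptors had changes between -0.29 and 0.48. Fzd4, which is known from vessel growth in the retina, was named after its values were seen. It was at 7.82 on all 3 WT arrays to 2 decimals and at 7.46, 7.46, 7.79 and 7.41 in KO. Although no KO array reached a WT array, KO replicate 3 stood close to WT, and the change of -0.29 (SE 0.09) had an adjusted p of 0.120, or 0.00800 without KO replicate 3 (change -0.37). The endothelial list mean was 8.60, 8.78, 8.92 and 8.89 on KO replicates 1, 2, 3 and 4, against 8.82 to 8.93 in WT. KO replicate 4, close to KO replicate 3 in that mean, had the lowest Fzd4 level. The part of endothelial cells in the Fzd4 levels was not tested. Fzd6, also named after its values were seen, had the largest positive change (0.48) but SDs of 0.40 in WT and 0.56 in KO, with overlapping groups (adjusted p = 0.443). Fzd9, named after its values were seen, was called in the fit without WT replicate 1 alone (change 0.25, adjusted p = 0.0492), against a change of 0.10 and an adjusted p of 0.639 over all arrays. Fzd10os, which reads from the strand opposite Fzd10, was at 4.64 to 4.76 in WT and 4.69 to 4.83 in KO (adjusted p = 0.702), and the sign of its change turned with arrays centred on their medians.

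**Figure D3:**
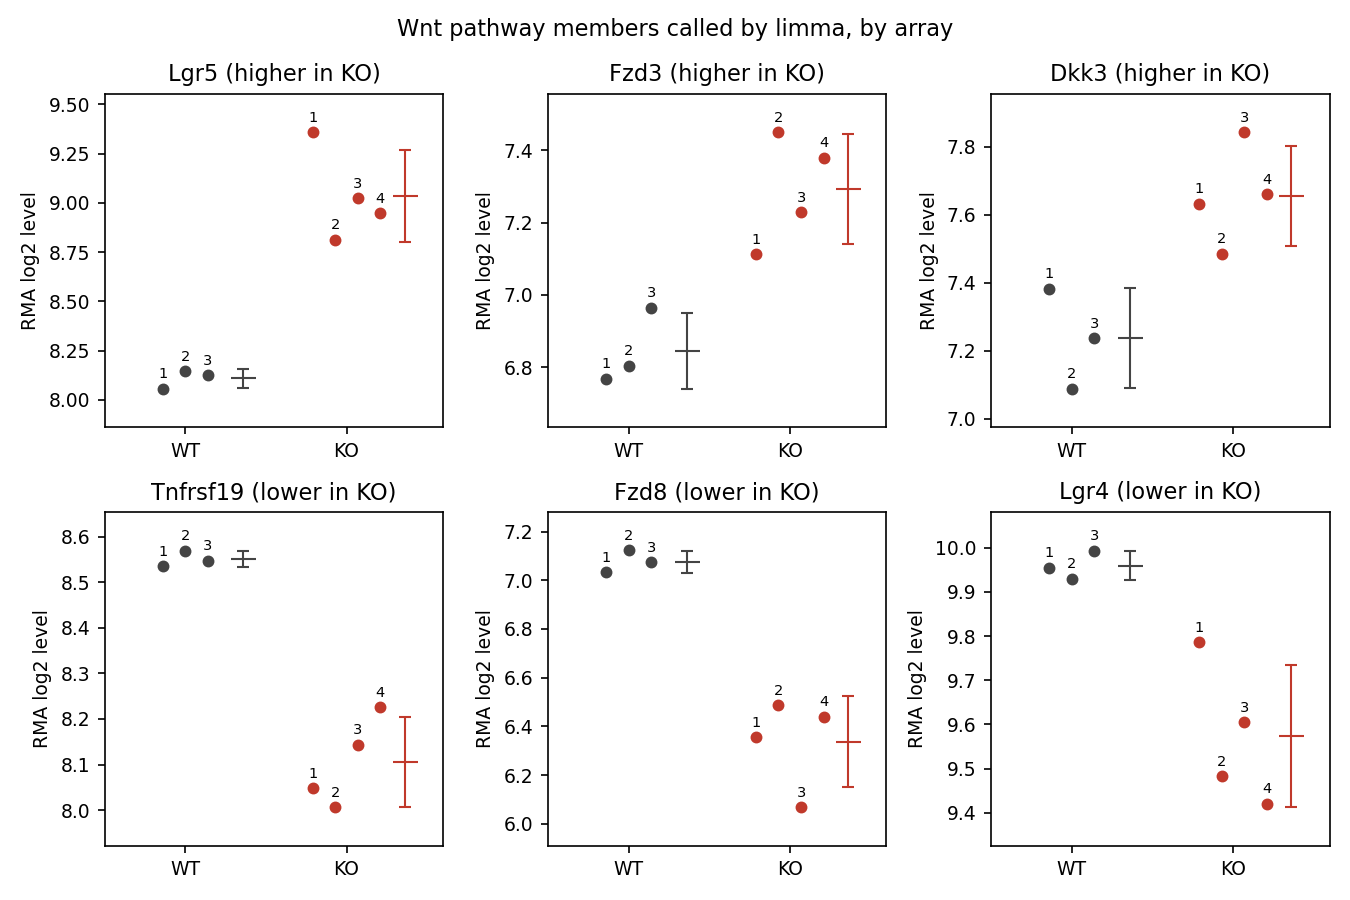
The RMA log2 level (y axis) of each of the 6 called members is plotted per array for WT (n = 3) and KO (n = 4), with the replicate number above each point and the group mean and SD as a bar. The groups do not overlap in any panel, and the gap is widest for Lgr5, whose highest WT array is at 8.14 and lowest KO array at 8.81.

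Of the 10 secreted inhibitors 1 rose and none fell. Dkk3, a secreted glycoprotein that is a relative of the Lrp-binding Dickkopf inhibitors and is known to differ from them in its action, was at 7.38, 7.09 and 7.24 in WT and at 7.63, 7.49, 7.84 and 7.66 in KO. The groups did not overlap, and KO replicate 2 was nearest to WT. The change was 0.42 (SE 0.10, adjusted p = 0.0456), close to the threshold. It was called in 1 of the 7 fits without 1 array, that without KO replicate 2, with an adjusted p of up to 0.147 in the others, and it was not called with arrays centred on their medians (adjusted p = 0.0506). Sfrp1, which binds Wnt ligands outside the cell, had the largest change of all members that were not called. It was at 7.52, 7.08 and 6.95 in WT and at 7.38, 7.73, 8.23 and 7.85 in KO. WT replicate 1 lay above KO replicate 1, so the groups overlapped, and the change of 0.61 (SE 0.21, 95% interval 0.11 to 1.12) had an adjusted p of 0.144. Sfrp2 changed by 0.13 (adjusted p = 0.201), and both were named after their values were seen. The remaining inhibitors, Dkk1, Dkk2, Dkk4, Sfrp4, Sfrp5, Wif1 and Notum, had changes from -0.12 to 0.16, none of them called. Of these, only Sfrp4, singled out after its values were seen, was followed further, and the sign of its change turned with arrays centred on their medians.

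The co-receptors, the ligases and the beta-catenin core gave no call. The difference was -0.05 for Lrp5 (95% interval -0.27 to 0.16) and -0.04 for Lrp6 (95% interval -0.20 to 0.13), and after a further quantile normalization that of Lrp6 turned to 0.033. Znrf3, the ligase that removes Frizzled receptors and that restrains Wnt signalling in the mouse adrenal cortex, was at 7.92, 8.07 and 8.02 in WT and at 7.85, 7.77, 7.75 and 7.90 in KO. All its KO arrays lay below all WT arrays, and the change of -0.18 (SE 0.06) had an adjusted p of 0.109. Its relative Rnf43 changed by -0.07 (adjusted p = 0.687). Ctnnb1, beta-catenin, was at 10.14 on each WT array and at 10.05, 10.14, 10.14 and 10.18 in KO. Its change was -0.01 (95% interval -0.11 to 0.09, adjusted p = 0.918), and its sign turned after a further quantile normalization (0.057). Apc, a scaffold of the destruction complex, was at 8.29 to 8.34 in WT and 8.27 to 8.33 in KO (change -0.02, 95% interval -0.10 to 0.07), and its sign turned under the same setting (0.022). Axin1, the other scaffold of that complex, changed by -0.03 (95% interval -0.16 to 0.10). These intervals bound the transcript levels only, since protein was not measured.

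Of the 4 target genes, which beta-catenin is known to induce in several tissues, 1 fell and 3 were not called, all 3 with positive changes. Tnfrsf19, a receptor of the tumour necrosis factor family, was at 8.54, 8.57 and 8.55 in WT and at 8.05, 8.01, 8.14 and 8.23 in KO. The WT arrays stood close together and above all KO arrays. The change was -0.45 (SE 0.06, 95% interval -0.58 to -0.31, adjusted p = 0.00575), called under all 16 alternatives with an adjusted p of up to 0.0398. Axin2, the negative-feedback scaffold widely used as a readout of the pathway, was at 7.62, 7.66 and 7.53 in WT and at 7.66, 7.79, 7.66 and 8.02 in KO. The groups overlapped, and KO replicate 4 was the highest array. The change was 0.18 (SE 0.09, adjusted p = 0.311) on this probe set and 0.02 (adjusted p = 0.819) on a second, dimmer one. Lef1, the transcription factor that carries beta-catenin to DNA, was at 7.32, 7.21 and 7.31 in WT and at 7.31, 7.63, 7.65 and 7.89 in KO. KO replicate 1 lay within the WT range and the other 3 above it. The change of Lef1 was 0.34 (SE 0.13, adjusted p = 0.162), and 0.44 without KO replicate 1 (SE 0.08, adjusted p = 0.0312). Nkd1, an inhibitor of Dishevelled that was named after its values were seen, was at 7.35 to 7.64 in WT and 7.65 to 7.97 in KO (change 0.25, adjusted p = 0.192) without overlap.

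The Wnt pathway genes outside the name rule were read from a list of 76. That list was chosen with earlier results of these data known, so its shares are a description only. Of its genes 72 were measured. Of these, 9 rose (12.5%, against 5.14% of all genes) and 1 fell (1.39%, against 3.55%), and the list median was 0.08. Of the 14 measured receptors and polarity genes of the branch without beta-catenin, 3 rose and none fell. Celsr3, an atypical cadherin of planar cell polarity known from neurons, was at 5.75, 5.75 and 5.88 in WT and at 6.80, 6.74, 6.61 and 6.52 in KO. All KO arrays lay above all WT arrays, and the change was 0.87, or 1.83-fold (SE 0.08, adjusted p = 0.00178). Its relative Celsr2 changed by 0.41 (SE 0.07, adjusted p = 0.0184) and the polarity protein gene Vangl2 by 0.41 (SE 0.07, adjusted p = 0.0177). On the same arrays 11 of 11 measured chromaffin markers rose, and their part in these changes was not tested.

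Of the 13 measured nuclear genes 2 rose, both co-repressors of the Groucho family that bind TCF/LEF factors. Tle1 was at 7.17, 7.15 and 7.19 in WT and at 7.79, 7.76, 7.68 and 7.64 in KO, without overlap (change 0.55, SE 0.05, adjusted p = 0.00178). Tle4 was at 6.59, 6.70 and 6.59 in WT and between 6.99 and 7.05 in KO, again with all KO arrays above WT (change 0.39, SE 0.04, adjusted p = 0.00322). Among 16 secreted or membrane modulators 2 rose and 1 fell. Gpc4, a cell-surface heparan sulfate proteoglycan, was at 8.80, 8.81 and 8.85 in WT and at 8.13, 7.89, 8.24 and 8.30 in KO with no overlap (change -0.68, SE 0.10, adjusted p = 0.00719). Serpinf1, a secreted serpin also known as an inhibitor of vessel growth, rose by 0.54 (adjusted p = 0.0415), and Shisa2, which holds Frizzled receptors in the endoplasmic reticulum, by 0.40 (adjusted p = 0.0373). Of 17 cytoplasmic genes the ubiquitin ligase subunit Btrc, which marks beta-catenin for degradation, rose by 0.22 (adjusted p = 0.0441) and Amer2, a membrane anchor of Apc, by 0.49 (adjusted p = 0.0482). Of 10 further targets, Ccnd1, Myc and Sp5 among them, and of the 2 secretion genes Porcn and Wls, none was called. Celsr3, Tle1 and Gpc4 were called under all 16 alternatives each, and Tle4 under 15 of 16. The other 6 were less stable: Vangl2 and Celsr2 were each called in 3 of the 7 fits without 1 array. Serpinf1 and Amer2 were called in 1 of 7 (without KO replicate 1), as were Shisa2 (without KO replicate 3) and Btrc (without KO replicate 2), with adjusted p-values of up to 0.145 for Serpinf1, 0.163 for Amer2, 0.147 for Shisa2 and 0.233 for Btrc over the alternatives. In the fits without 1 array the number of the 72 genes that rose was between 3 (without WT replicate 1) and 10 (without KO replicate 1), against 9 over all arrays. Of all 22180 genes, 794 and 945 rose in the same fits, against 1140 over all arrays. Without WT replicate 1 the count of the list thus fell more steeply than that of all genes.

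In the authors' deposited table, which gives 1 log2 fold change per symbol, 57 of the 58 members are listed (all but Fzd10os), and 6 of these had an adjusted p under 0.05 (10.5%, against 9.72% of its 28638 symbols). These were the same 6 members, 3 higher (against 5.57% of its symbols) and 3 lower (against 4.16%). The authors' deposited table lists log2 fold changes of 0.95 for Lgr5, -0.76 for Fzd8 and -0.44 for Tnfrsf19. Beside these 57 it holds Tcf7, the TCF factor of T cells, with a log2 fold change of 0.24 and an adjusted p of 0.167 in the authors' deposited table. The test behind those p-values is unstated, and the table comes from the same 7 arrays.

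**Figure D4:**
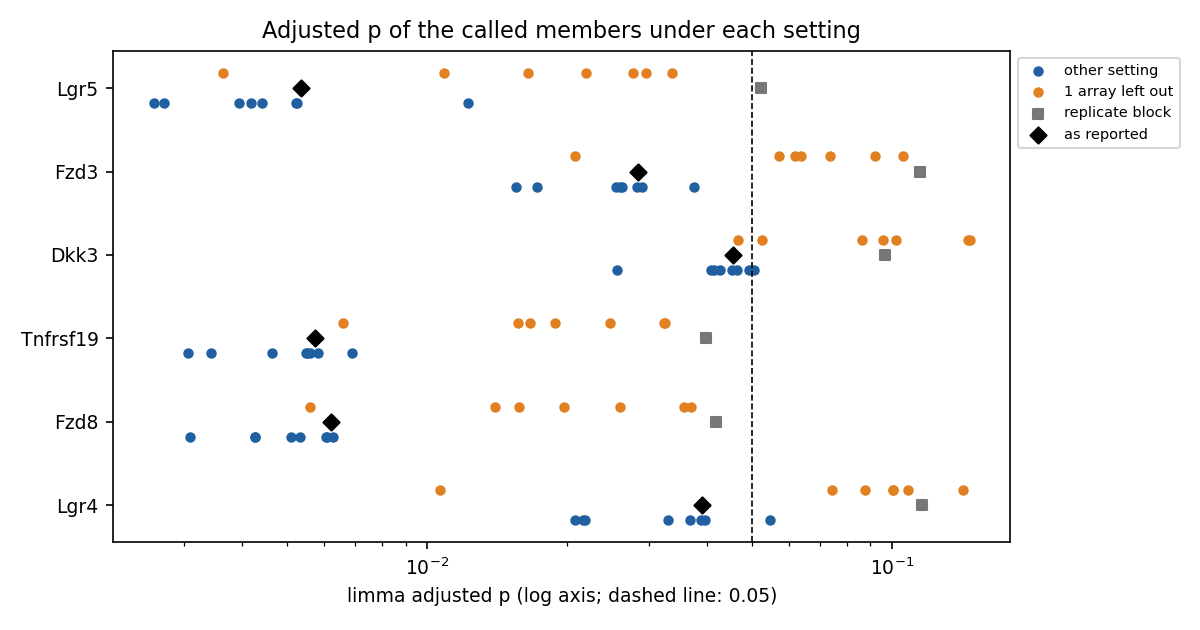
The limma adjusted p (x axis, log scale) of each called member is plotted as reported (diamonds), with 1 array left out (orange), with the replicate number as a block (grey squares) and under the other settings (blue), with a dashed line at 0.05. Fzd8 and Tnfrsf19 stay below 0.05 throughout, Lgr5 passes it with the block (0.0523), and Fzd3, Dkk3 and Lgr4 pass it in 6 of 7 fits without 1 array.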

How the data were processed

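The authors deposited log2 values of 41345 probe sets on 7 arrays, which RMA produced, per the submitters' processing notes. RMA subtracts background, equalises the arrays' distributions and combines each set's probes into 1 log2 value, which compresses differences of dim genes. Its version, detection calls and a genome build stay unstated. The authors also deposited a table of log2 fold changes, p-values and adjusted p-values per symbol. Through the platform's annotation 23521 probe sets had 1 symbol, and all 58 members matched by Entrez identifier. KO was compared with WT in R 4.3.3 with lmFit and eBayes of limma 3.58.1 (statmod 1.5.0), two-sided, without covariates or a filter on low values, which left 5 residual degrees of freedom. The number of arrays limits the precision. The fit was tested on simulated data. The labels call the arrays biological replicates. The members and lists were chosen with earlier results of these data known. Genes named are the called members, Wnt4, Wnt2b, Rspo1, Rspo3, Lgr5, Ctnnb1, Axin2, Lef1, Apc, Znrf3, Rnf43, the lowest unadjusted p of each role, and called genes of the other list; others are said to be named after their values were seen, and Lrp6, Lgr6 and Fzd10os complete their roles. Alternatives covered low values, probe sets, the prior, normalization, weights, the replicate block, the threshold and each array left out.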

Additional observations from a re-analysis of the deposited data

Results flagged for a closer look

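In the KO group, 1 array stood apart from the other 3 by more than Dixon's critical value of 0.829 for 10 of 66 genes. Chance gives about 1 in 20 groups of normally spread values, a rate that does not hold where values are tied, as some are here. The share over all genes was not computed. The 66 are the 68 members and called genes of the other list without Wnt7b and Wnt11, which held 1 identical value on all KO arrays. Of the 10, 9 are members. KO replicate 1 stood apart for Wnt8b (4.31, others all 4.27), Wnt5b (5.20, others 5.17), Wnt3 (3.89, others 3.95), Wnt7a (4.81, others 4.80), Fzd9 (5.53, others 5.64 to 5.65) and Amer2 (6.15, others 5.69 to 5.77). KO replicate 2 did for Wnt3a (4.85, others 4.60 to 4.63) and Wnt2 (5.47, others 5.18 to 5.19). KO replicate 4 did for Wnt16 (4.14, others 3.96 to 3.98), and KO replicate 3 for Fzd4 (7.79, others 7.41 to 7.46). For Wnt8b, Wnt5b, Wnt3 and Wnt7a the other 3 arrays held 1 identical value, so any difference of the fourth array meets this criterion.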

How the results depend on the processing

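Of the 6 called members, Fzd8 and Tnfrsf19 were called under all 16 alternatives, Lgr5 under 15, Fzd3 under 9, and Dkk3 and Lgr4 under 8 each. The 16 leave out the thresholds: under 0.01 only Lgr5, Fzd8 and Tnfrsf19 were called, and under 0.1 all 6. All but Lgr5 have 1 probe set, so the settings on probe sets could hardly change their calls. Without 1 array there were 1 to 6 members higher and 2 to 3 lower, 594 to 945 of all genes higher and 322 to 654 lower, and 3 to 10 genes of the other list higher. At an adjusted p under 0.01, 1 member, 460 genes and 3 genes of the other list were higher and 265 genes lower, and under 0.1 there were 1308 lower. With arrays centred on their medians 1329 genes were lower. The members' median was 0.075 without genes of below-median level, which left 28 members. Correlations of same-numbered deviations were 0.07, -0.0835 and -0.111 by the titles. By the descriptions, which number the WT arrays 2 to 4, they were -0.0708, 0.211 and -0.0229. With so few arrays these values cannot decide whether the numbers pair the samples. With a replicate block by the titles' numbers, which leaves KO replicate 4 without weight, 0 members were higher and 2 lower. Of all genes 523 were then higher and 286 lower, and 3 genes of the other list were higher. A block by the descriptions' numbers was not fitted. At an unadjusted p under 0.05 the plain fit gave 14 members (24.1%, against 22.8% of all genes). Apart from the fits without 1 array, signs were followed for a part of the members only. Among these they turned near 0: after quantile normalization Ctnnb1 (0.057), Apc (0.022), Lrp6 (0.033) and Sfrp4 (-0.013), with centred arrays Sfrp4 (-0.036) and Fzd10os (-0.0096), and with the block Lrp5 (0.0050). Centring lowers every change by the same amount, so further members with small positive changes, such as Notum and Wnt11, turned as well. Without 1 array the sign turned at least once for 15 members, none of them called in any of these fits and all within 0.0786 of 0 over all arrays. Among those whose change is described above, it ran from -0.028 to 0.016 for Ctnnb1, -0.11 to 0.0050 for Lrp5, -0.069 to 0.0035 for Axin1, -0.18 to 0.18 for Sfrp4 and -0.00024 to 0.066 for Fzd10os. The cause of these shifts was not tested.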
